A study of Danio rerio with 45 samples.

Results

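Zebrafish embryos whose rad21 had been targeted with a morpholino (Rad21 MO) were followed across the hours in which the embryo's own genome is switched on, from 3.3 to 4.5 hours post fertilisation (hpf). The libraries were chosen by group name, 3 Rad21 MO libraries at 3.3 hpf and 3 at 4.5 hpf, 6 of 45 libraries in the series. All embryos were of strain AB/PS, and each library held RNA of 100 pooled whole embryos that had been matched in stage by eye. The same step in wild-type embryos (WT, 6 libraries) and in embryos injected with a morpholino against ctcf (CTCF MO, 6 libraries) served for comparison. Morpholinos are synthetic antisense molecules that keep an RNA from being translated or spliced, and no gene was deleted in any group. The labels give no morpholino sequence or dose and no protein level, and do not say whether control embryos received an injection. They do not say either that pools of a group came from separate clutches, so the spread that p-values rest on is one between pools and may be technical.

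Early zebrafish embryos divide rapidly on RNA and protein that the mother left in the egg. Around the mid-blastula stage this store begins to be broken down, partly through microRNA miR-430 and partly through shortening of poly(A) tails, while the zygotic genome starts to be transcribed. Pou5f3 (listed here as pou5f1), Nanog and SoxB1 proteins bind early enhancers and open this programme. Rad21 is the subunit that closes the cohesin ring, which holds sister chromatids together and also extrudes loops of chromatin between enhancers and promoters.

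Expression was read as FPKM (fragments scaled by transcript length and by 1e+06 fragments mapped), and every change below is a difference of log2(FPKM + 1). One unit is a doubling for well expressed genes and more than a doubling for genes near or below 1 FPKM. The 18 libraries of the 3 treatments at both stages each had 13223 to 14352 genes at 1 FPKM or more. Correlation with libraries of the same group was 0.950 to 0.971 across genes. The summed FPKM was 726014 ± 31777 (SD, n = 3) in Rad21 MO at 3.3 hpf and 897222 ± 133615 (SD, n = 3) at 4.5 hpf. In WT it was 731091 ± 42646 and 1108044 ± 47582 (SD, n = 3 each), so the Rad21 MO embryos at 4.5 hpf stood between in the mean. Their 3 libraries summed to 802236, 839424 and 1050006. In the highest, column 2, 10 loci held 39.2% of the sum, the largest such share of the 18 libraries. Rescaling to equal sums, used below, rests on these totals. An FPKM table holds no read totals, and depth is known only as a ratio between libraries, which ran from 0.603 to 1.25.

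One of the 6 libraries stands apart by its spike-ins, and one label of each stage is in conflict. The title and the age label disagree for 1 Rad21 MO library of each stage, with 3.3 and 4.5 hpf exchanged. The column names could not be tied to these titles, so each column kept the stage in its name. All libraries carry synthetic spike-in RNAs, of which 35 of 92 were above 5 FPKM in every library. By the ratio of 8 spike-ins that vary to 9 assumed equal between kinds, 44 libraries fell into 2 kinds. Their log2 ratios were -0.67 to -0.46 in 24 libraries of the first kind and 1.34 to 1.53 in 20 of the second. The remaining library, column 0 of Rad21 MO at 4.5 hpf, lay between them at 0.14, which on the linear scale is 20.8% of the way from the first kind to the second. On that scale the libraries of the first kind lay between -2.65% and 2.04%, and those of the second between 91.2% and 108.8%. The same library correlated best of its group with a 3.3 hpf library (r = 0.942 across genes, with column 0 of Rad21 MO at 3.3 hpf). The part of these differences in the results was not tested, and the main values below are therefore given with and without this library.

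**Figure D1:**
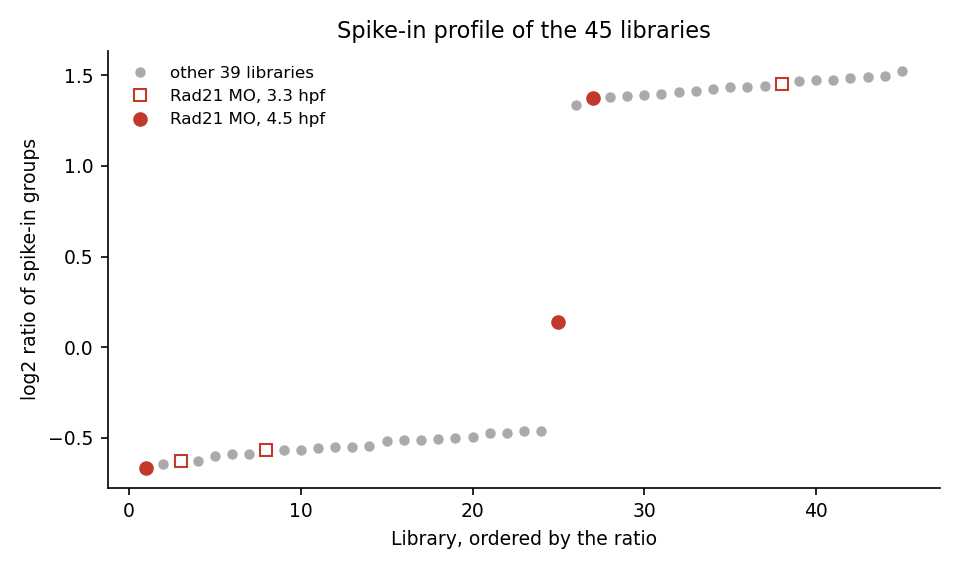
Spike-in profile of each library: the log2 ratio of 8 spike-in RNAs that differ between libraries to 9 assumed equal in the 2 kinds of library. The 45 libraries are in order of that ratio. Open squares and filled circles are Rad21 MO libraries at 3.3 and 4.5 hpf, grey points are the other libraries, and 1 Rad21 MO library at 4.5 hpf sits at 0.14 between the 2 kinds.

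rad21a, which encodes the cohesin subunit aimed at, lies on chromosome 16, 51486520 to 51734308 (Zv9). Its level was 80.9, 73.8 and 76.3 FPKM at 3.3 hpf and 94.1, 112 and 94.99 FPKM at 4.5 hpf, so every later library was above every earlier one. The change was 0.38 ± 0.10 (SE; adjusted p = 0.0176) by limma. It was not called when libraries were rescaled to a summed FPKM of 1e+06 (adjusted p = 0.661) or scaled to spike-ins (adjusted p = 0.695). WT changed more, from 72.98 to 143 FPKM, and the Rad21 MO step differed from the WT step by -0.58 ± 0.15 (SE; adjusted p = 0.01999), a call that was lost without column 0 at 4.5 hpf. The neighbouring locus RAD21 (3 of 3) had 36.7, 31.4 and 31.4 FPKM at 3.3 hpf and 45.2, 38.3 and 38.8 FPKM at 4.5 hpf, and as a copy it may share reads with rad21a. rad21b was at or below 0.229 FPKM in all 6 libraries and was not tested. A morpholino acts on translation or splicing, so a level of RNA does not check the knockdown.

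Inside the knockdown the embryos still changed broadly between the stages. Of 15536 genes tested, 3102 (20%) were called at an adjusted p under 0.05 by limma, 1853 higher (11.9%) and 1249 lower (8.04%) at 4.5 hpf. Among the risers 1112 changed at least 2-fold, among the fallers 78. WT embryos passed the same stages with 8335 calls (53.6%), 4423 higher (28.5%) and 3912 lower (25.2%), of which 2035 and 1581 were at least 2-fold. Nearly all that changed in the knockdown also changed in WT, whose libraries are independent of these. Of the 1853 risers 1814 (97.9%) were called higher in WT, where they made up 41.0% of the risers, and none was called lower. Of the 1249 fallers 1116 (89.4%) were called lower in WT (28.5% of the WT fallers) and 5 were called higher. The stages did not overlap in the knockdown for 5842 genes (37.6%) and in WT for 9481 genes (61%).

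The balance of rises and falls depends on how libraries are set against each other, since FPKM values are relative amounts. In the values as given the median change of all tested genes was -0.03 in Rad21 MO and 0.02 in WT, while the summed FPKM rose in both. Whether these values had been scaled between libraries was not tested. With every library rescaled to a summed FPKM of 1e+06 the median of all genes shifted to -0.29. Of 15917 genes then tested 1322 were called higher and 3442 lower. Counts of gene lists under another scaling are to be read beside the counts of that scaling. Under quantile normalization 1649 were higher and 1563 lower. With libraries scaled to the spike-ins assumed equal between kinds, an alternative chosen after seeing the data, the median was -0.21. This scaling called 1157 genes, 1031 higher and 126 lower. The WT balance turned as well, with 2058 higher and 7097 lower after rescaling (median -0.46), 3635 and 4481 under quantile normalization and 1838 and 4813 when scaled to the spike-ins (median -0.39). Without column 0 at 4.5 hpf, 3525 genes were called, 1938 higher and 1587 lower, and 2846 of them were among the 3102. Without column 1 at 4.5 hpf 1724 were called, and without column 1 at 3.3 hpf 2056.

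**Figure D2:**
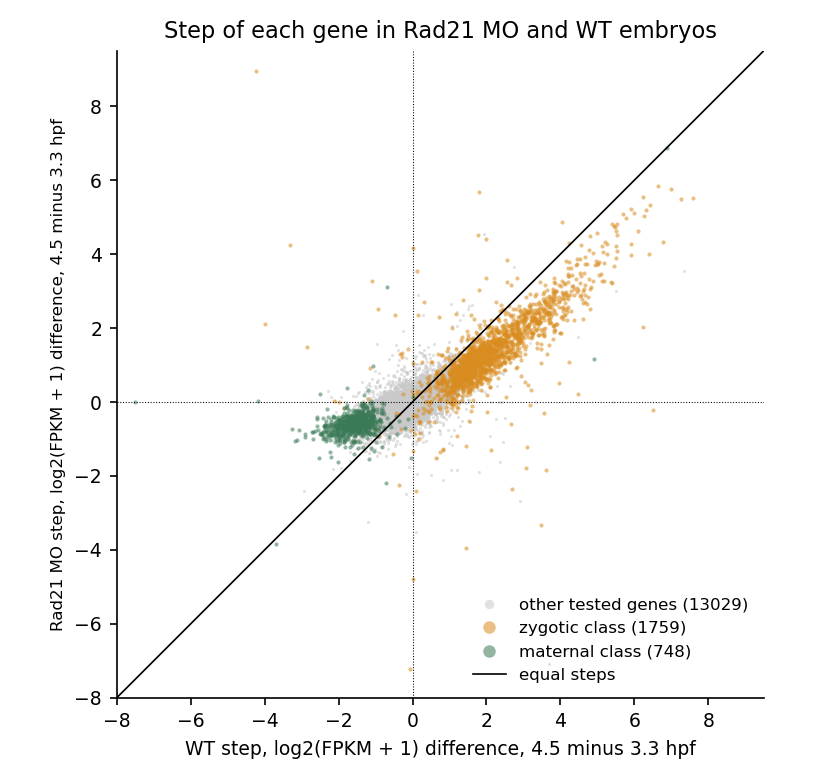
Change of each tested gene from 3.3 to 4.5 hpf in Rad21 MO embryos (vertical) against the same change in WT embryos (horizontal), both as differences of mean log2(FPKM + 1) of 3 libraries. Orange points are the 1759 genes of the zygotic class and green points the 748 genes of the maternal class; most of both lie on the side of the diagonal where the knockdown moved less.

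To follow the zygotic genome as a whole, a class of 1759 genes was taken whose WT level was at least 4-fold higher at 5.3 than at 2.5 hpf, in libraries that enter neither stage compared here. In the knockdown 1261 of them (71.7%) were called higher and 4 lower, against 11.9% and 8.04% of all tested genes. Their median change was 1.22 in Rad21 MO and 1.90 in WT, where 1577 were called higher. Set against the mean of the 3.3 hpf libraries, the class median stood at 1.04, 1.44 and 1.23 in the 3 libraries at 4.5 hpf. Column 0 was the lowest of these, and without it the median change was 1.31. The 1050 genes of the class that were under 1 FPKM in WT at 2.5 hpf gave 1.29 in the knockdown and 2.03 in WT. At 3.3 hpf the class was already slightly above WT in Rad21 MO (median difference 0.17, 13 genes called higher), and at 4.5 hpf it was below (median -0.54, 548 called lower). Over all tested genes 0.142% were called at 3.3 hpf, all higher. At 4.5 hpf 29.6% of all tested genes were called, 14.6% higher and 14.9% lower.

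Genes crossed from a very low level to a clear one in both kinds of embryo, and fewer met fixed limits for this in the knockdown. In Rad21 MO 66 genes were under 1 FPKM in every library at 3.3 hpf and at 5 FPKM or more in every library at 4.5 hpf. In WT 172 met the same limits, and 55 met them in both. Of the 66 genes 64 belonged to the zygotic class, which held 1759 of all 15536 tested genes. That 64 of the 66 were called follows largely from the limits, which were set on the same libraries. Over the 1582 zygotic-class genes that at least doubled in WT, the change in the knockdown had a median of 64.2% of the WT change (quartiles 51.4% and 74.9%) on the log2 scale. It was at least as large as in WT for 45 of them. These genes were picked on their WT change, which favours WT in the comparison, so the shares are a description.

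Several of the largest rises were of genes active in the outer covering of the embryo. Of 20 tested genes of the enveloping layer, the first epithelium to differentiate, 14 were called higher and none lower. Over all tested genes the shares were 11.9% and 8.04%. The median change of the 20 genes was 1.95 in Rad21 MO and 3.09 in WT. The Rad21 MO median of this list was 1.66 without a filter on low values or with all 45 libraries. krt4, a keratin of this layer (chromosome 6, 39239361 to 39243891), had 6.61, 1.58 and 2.81 FPKM at 3.3 hpf and 169.8, 238 and 167 FPKM at 4.5 hpf. Its WT libraries had 0.358, 1.99 and 1.51 FPKM and 278, 461 and 286 FPKM. The stages were far apart in both, and the change in the knockdown was 5.49 ± 0.38 (SE; adjusted p = 1.04e-07). krt8, another keratin, went from 5.36 to 216 FPKM (5.12, adjusted p = 1.58e-08). krt5, a type II keratin, went from 0.416 to 48.9 FPKM (5.09, adjusted p = 2.83e-07). evpla, whose product envoplakin builds cell envelopes in epithelia, had 0.0809, 0.0192 and 0.0376 FPKM at 3.3 hpf and 19.8, 29.7 and 19.4 FPKM at 4.5 hpf. anxa1a, a calcium-dependent membrane-binding annexin, went from 1.02 to 49.1 FPKM (4.61, adjusted p = 5.14e-08). In whole embryos fewer cells of a type and less RNA per cell cannot be told apart.

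Genes of the yolk syncytial layer, the nucleated layer under the blastoderm, all rose. Each of the 9 genes tested was called higher, in Rad21 MO (median 2.77) as in WT (median 3.89). Over all tested genes the shares called higher were 11.9% and 28.5%. hnf4a, a nuclear receptor of lipid-handling tissues, had 0.266, 0 and 0.199 FPKM at 3.3 hpf and 21.6, 35.3 and 12.2 FPKM at 4.5 hpf. MTTP, the microsomal protein that loads lipid onto lipoproteins, had 0.06803, 0.0537 and 0.06701 FPKM at 3.3 hpf and 43.3, 44.7 and 28.9 FPKM at 4.5 hpf. mxtx1, a homeobox factor of this layer, had 9.17, 2.54 and 4.500 FPKM at 3.3 hpf and 48.01, 78.4 and 45.2 FPKM at 4.5 hpf, and the column 0 library was the highest of its stage at 3.3 hpf. The change of mxtx1 was 3.28 in the knockdown and 5.18 in WT, and that difference (-1.90, adjusted p = 0.0225) was not called without column 0 at 4.5 hpf. Other genes among the 15 largest rises were plekhf1, a membrane-lipid-binding protein gene (5.55), stm, which encodes the otolith protein Starmaker (5.51), ctsll, a cathepsin L-like protease gene (5.33), and alcamb, a cell adhesion gene (4.75).

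Regulators that open zygotic transcription had smaller changes. Of 6 tested activator genes 4 were called higher and none lower, beside 11.9% and 8.04% of all tested genes. Their median change was 0.65 in Rad21 MO and 1.13 in WT. pou5f1 had 169.7, 175 and 166 FPKM at 3.3 hpf and 259, 366 and 300.0 FPKM at 4.5 hpf, a change of 0.84 ± 0.15 (SE; adjusted p = 6.99e-04). nanog had 478, 452 and 445 FPKM at 3.3 hpf and 591, 645 and 661 FPKM at 4.5 hpf, a change of 0.46 ± 0.09 (SE; adjusted p = 0.00145) that was not called after rescaling (adjusted p = 0.373) or quantile normalization (adjusted p = 0.532). The differences from WT in these changes, -0.47 for pou5f1 and -0.33 for nanog, did not pass the test (adjusted p = 0.147 and 0.0902). sox19a and sox3, SoxB1 genes that the zygote transcribes, had changes of 1.80 and 1.10, against 3.56 and 2.26 in WT. sox19b, the SoxB1 gene supplied by the mother, had 266, 271 and 276 FPKM at 3.3 hpf and 226, 215 and 227 FPKM at 4.5 hpf (-0.28, adjusted p = 0.136). In WT sox19b fell (-0.97), and the difference between the steps was 0.69 (adjusted p = 0.0241), a call lost without column 0 at 4.5 hpf.

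First-wave genes, the earliest to be transcribed, rose without exception among those called. Of 30 tested, 23 were higher and none lower, beside 11.9% and 8.04% of all tested genes. The median change of the first-wave genes was 1.59 against 2.83 in WT. tbx16, a T-box factor of the mesoderm (chromosome 8, 54012018 to 54031716), had 9.97, 5.701 and 6.08 FPKM at 3.3 hpf and 108, 146 and 125 FPKM at 4.5 hpf, and its WT libraries had 1.12, 3.101 and 2.51 FPKM and 167, 217 and 181 FPKM. In the mean the knockdown started higher than WT and ended lower, but neither difference was called (limma, adjusted p = 0.0817 and 0.144). The steps of 3.97 and 5.91 differed by -1.94 ± 0.40 (SE; adjusted p = 0.00897). vox, a homeobox repressor of dorsal fate, had 94.8, 97.01 and 90.7 FPKM at 3.3 hpf and 178, 212 and 220.0 FPKM at 4.5 hpf and in WT 52.8, 65.9 and 59.6 FPKM and 272, 380.0 and 367 FPKM. Its change was 1.10 ± 0.14 (SE; adjusted p = 5.20e-05), and its step differed from that of WT by -1.39 ± 0.20 (SE; adjusted p = 0.00194). blf, which encodes a zinc finger protein of the blastula, had 122, 69.7 and 89.98 FPKM at 3.3 hpf and 247, 266 and 256 FPKM at 4.5 hpf and a change of 1.47 ± 0.18 (SE; adjusted p = 3.04e-05). zic2b, a zinc finger factor, went from 21.8 to 210.1 FPKM, cebpb, a leucine zipper factor, from 8.44 to 92.9 FPKM, and aplnra, a receptor of gastrulating mesoderm, from 1.25 to 23.8 FPKM. apoeb, an apolipoprotein gene, went from 84.2 to 395 FPKM in the knockdown and from 36.6 to 773 FPKM in WT.

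Signals and targets of the germ layers rose as well. Of 21 tested genes of Nodal signalling and mesendoderm 18 were called higher and none lower (median 1.96, WT 3.05). Over all tested genes the shares were 11.9% and 8.04%. The list matched 29 loci, and its Rad21 MO median was 1.30 without a filter on low values and 1.47 with all 45 libraries. ndr1, a Nodal ligand, chosen here after its values were seen like gsc and ntla, went from 9.11 to 23.1 FPKM (1.22, adjusted p = 6.35e-04), and its target gsc, a marker of the organizer, went from 11.1 to 31.5 FPKM (1.39). ntla, the zebrafish brachyury gene, had 2.99, 1.53 and 1.41 FPKM at 3.3 hpf and 38.3, 89.9 and 28.9 FPKM at 4.5 hpf, with 1 library well above the others at 4.5 hpf. flh, a homeobox gene of the future notochord, had 25.9, 15.4 and 18.9 FPKM at 3.3 hpf and 155, 316 and 209.7 FPKM at 4.5 hpf. Its WT libraries had 4.96, 8.37 and 10.1 FPKM and 142, 174 and 157 FPKM, so the knockdown was not below WT at either stage in its mean. chd, which encodes the BMP antagonist Chordin, went from 5.35 to 33.9 FPKM in the knockdown and from 1.58 to 49.5 FPKM in WT, and the steps differed by -1.84 ± 0.25 (SE; adjusted p = 0.00157).

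Ventral and FGF genes gave a similar count. Of 24 tested BMP and ventral genes 16 were called higher and none lower (median 1.15, WT 1.75), beside 11.9% and 8.04% of all tested genes. The Rad21 MO median of this list was 0.92 without a filter on low values or with all 45 libraries. bmp2b, a ligand of the pathway, had 32.6, 18.2 and 29.2 FPKM at 3.3 hpf and 55.7, 67.6 and 72.3 FPKM at 4.5 hpf. bmp7a, its partner in the active dimer, had 1.77, 1.38 and 1.497 FPKM at 3.3 hpf and 16.2, 15.1 and 14.9 FPKM at 4.5 hpf against 0.452, 0.475 and 0.875 FPKM and 36.97, 39.7 and 36.4 FPKM in WT. The bmp7a libraries at 4.5 hpf were close to each other in the knockdown and all below those of WT. id1, a target of BMP signalling, went from 116 to 565 FPKM. Of 22 FGF and Wnt genes 14 were called higher and none lower (median 0.96, WT 1.38). fgf8a, an FGF ligand of the margin, had 2.53, 0.465 and 0.948 FPKM at 3.3 hpf and 37.1, 61.5 and 28.5 FPKM at 4.5 hpf and in WT 0.663, 0.291 and 1.62 FPKM and 31.5, 56.1 and 37.5 FPKM. Its steps of 4.26 and 4.55 differed by -0.29 ± 0.51 (SE; adjusted p = 0.766), with a standard error too wide to show that they were alike. fgf17, a related ligand, changed by 3.40 in the knockdown. Of 16 neural plate genes 8 were called higher and none lower (median 1.04, WT 1.26; 0.23 without a filter on low values or with all 45 libraries, and 2.01 at a minimum of 5 FPKM), among them sox11b, a SoxC transcription factor gene (1.17, WT 1.28).

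**Figure D3:**
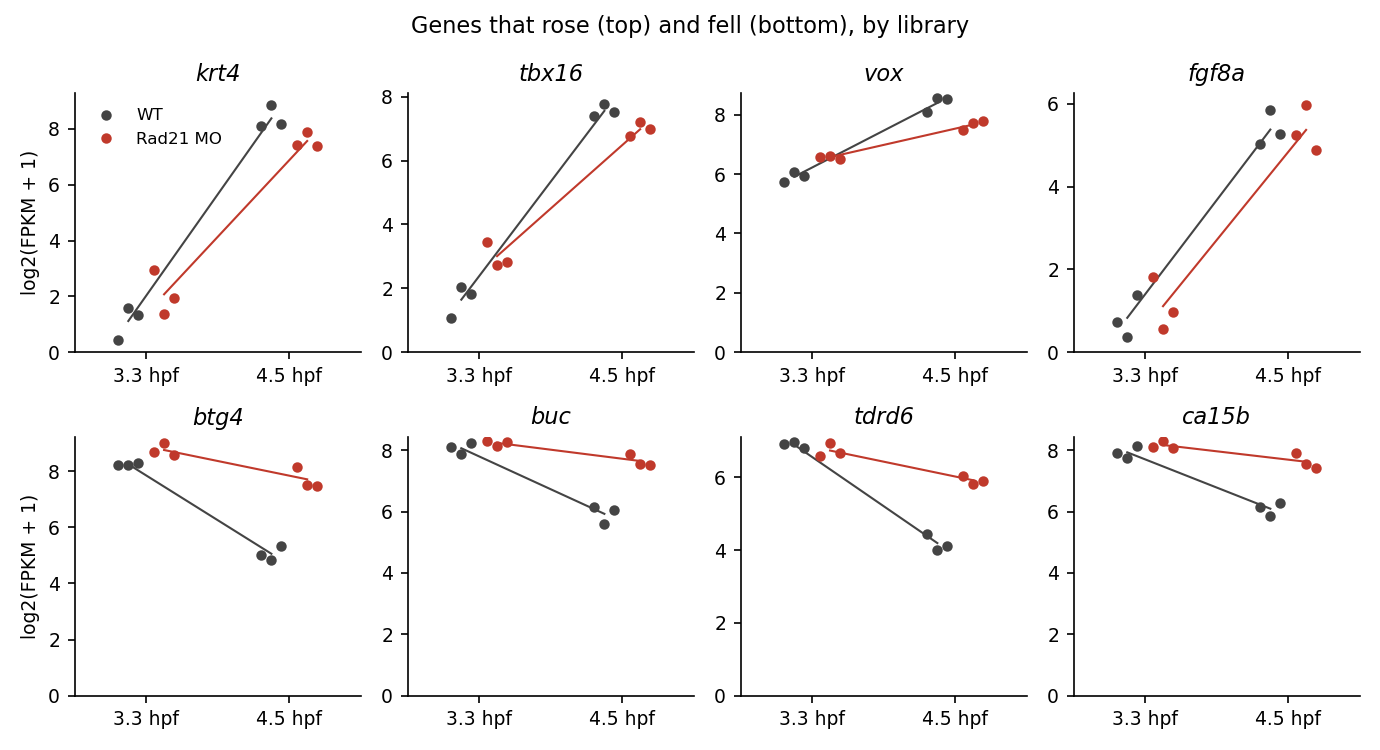
Level of 8 genes in each library, as log2(FPKM + 1), at 3.3 and 4.5 hpf in WT (grey) and Rad21 MO (red), with lines through the group means. In the upper row krt4, tbx16, vox and fgf8a rose in both kinds of embryo, and in the lower row btg4, buc, tdrd6 and ca15b fell less far in Rad21 MO than in WT.

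Clearance of the maternal store was seen in the knockdown but reached less far. A maternal class of 748 genes, at least 4-fold lower in WT at 5.3 than at 2.5 hpf, held 400 genes called lower (53.5%) and none called higher. In WT 721 of them (96.4%) were called lower. The median change was -0.60 in Rad21 MO and -1.56 in WT. Against the mean of the 3.3 hpf libraries the class stood at -0.40, -0.72 and -0.67 in the 3 libraries at 4.5 hpf, and column 0 was again nearest to 3.3 hpf. Without that library the median change was -0.70. Over the 706 maternal-class genes that at least halved in WT, the change in the knockdown was 36.6% of the WT change in the median (quartiles 28.8% and 45.6%). It was smaller than in WT for 702. These genes too were picked on their WT change, which favours WT in the comparison, so the shares are a description. At 3.3 hpf the class median was 0.08 above WT with 1 gene called higher, and at 4.5 hpf it was 1.08 above with 635 called higher, against a background of 14.6%.

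Of the 15 largest falls 5 are described here. arl4aa, a small GTPase gene, had 47.8, 49.1 and 47.8 FPKM at 3.3 hpf and 27.7, 10.4 and 14.6 FPKM at 4.5 hpf. KPNA7, an importin alpha of oocytes and early embryos in mammals, had 106, 163 and 138 FPKM at 3.3 hpf and 79.8, 30.1 and 42.1 FPKM at 4.5 hpf. birc5b, a survivin gene of the chromosomal passenger complex, had 176, 184 and 163 FPKM at 3.3 hpf and 143, 43.5 and 66.2 FPKM at 4.5 hpf. In each of the 3 the column 0 library at 4.5 hpf was the highest of its stage, and for birc5b it lay near the 3.3 hpf range. CEP152, needed for centriole duplication, fell from 23.6 to 9.75 FPKM (-1.25, adjusted p = 3.86e-04). rpap1, a partner of RNA polymerase II, fell from 12.2 to 5.07 FPKM (-1.13, WT -0.77). The loci of the small RNAs SNORA63 and dre-mir-430a-11 were also in this set, but near-identical copies may share reads and their separate values are uncertain.

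Transcripts typical of the egg fell in part. Of 19 tested 9 were called lower and none higher, beside 8.04% and 11.9% of all tested genes. The median of the egg transcripts was -0.43 in Rad21 MO and -0.78 in WT. The 9 became 4 without column 1 or column 2 at 3.3 hpf, 3 without column 1 and 5 without column 2 at 4.5 hpf, and 1 when scaled to the spike-ins. buc, needed for the Balbiani body that forms in the oocyte (chromosome 2, 28022980 to 28027100), had 313, 282 and 308 FPKM at 3.3 hpf and 235, 186 and 182 FPKM at 4.5 hpf, and in WT 272, 234 and 297 FPKM and 69.6, 46.9 and 65.4 FPKM. mos, a kinase that holds the egg in meiosis, had 51.5, 52.8 and 63.4 FPKM at 3.3 hpf and 37.9, 21.6 and 23.4 FPKM at 4.5 hpf. bmp15, an oocyte growth factor, went from 37.5 to 23.8 FPKM, and cldnd, a claudin gene of the egg, changed by -0.89 (WT -1.99). For germ plasm, the inherited material that specifies germ cells, 5 of 15 tested genes were called lower and none higher (median -0.32, WT -0.82). The 5 became 2 without column 1 at 3.3 hpf or column 2 at 4.5 hpf, 3 without column 1 at 4.5 hpf, 9 after rescaling and 1 when scaled to the spike-ins. tdrd6, a Tudor domain gene of germ granules, had 95.4, 122 and 101 FPKM at 3.3 hpf and 64.7, 55.2 and 59.2 FPKM at 4.5 hpf, and in WT 119.8, 124 and 111 FPKM and 20.97, 15.2 and 16.3 FPKM. ca15b, whose RNA sits in germ plasm, went from 288 to 198 FPKM in the knockdown and from 245 to 67.9 FPKM in WT. dazl, an RNA-binding protein gene of germ cells, did not pass the test (-0.32, adjusted p = 0.334), with column 0 at 4.5 hpf inside the 3.3 hpf range.

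Of 21 tested genes of the machinery that removes maternal RNA 1 was called higher and 3 lower, near the 20% called over all tested genes. Their median was 0.05, and it was negative after rescaling, where 1 was called higher and 6 lower. Over all 15917 genes tested after rescaling the counts were 1322 and 3442. In WT 11 were called higher and 4 lower (median 0.31). btg4, which brings the deadenylase complex to maternal RNA, had 409, 513 and 378 FPKM at 3.3 hpf and 283, 181 and 175 FPKM at 4.5 hpf, and in WT 299, 297 and 309.8 FPKM and 31.2, 27.2 and 39.4 FPKM. Its step was -1.04 against -3.19 in WT, a difference of 2.14 ± 0.29 (SE; adjusted p = 0.00142). cnot7, a catalytic deadenylase subunit, had 19.6, 25.4 and 20.2 FPKM at 3.3 hpf and 16.1, 16.96 and 16.5 FPKM at 4.5 hpf (-0.37, adjusted p = 0.2197), while in WT it went from 20.5 to 5.41 FPKM. ybx1, a protein that binds and masks maternal RNA, was the one that rose (1.11). eif4enif1, a repressor of cap-dependent translation, fell from 72.5 to 52.8 FPKM (-0.44), close to its WT step of -0.28. Of 53 loci listed under the name of miR-430, 2 were tested and 1 was called lower.

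**Figure D4:**
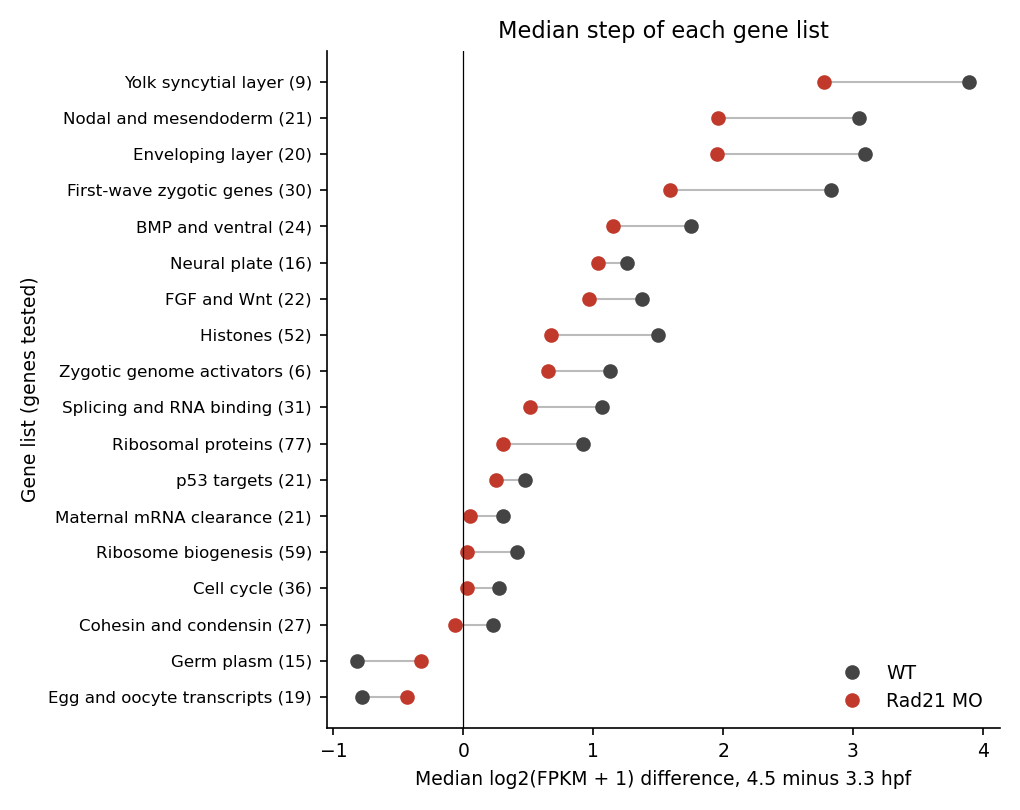
Median change from 3.3 to 4.5 hpf of each gene list with 5 or more tested genes, as a difference of log2(FPKM + 1), in Rad21 MO (red) and WT (grey), ordered by the Rad21 MO value. For the 18 lists shown, the Rad21 MO median was nearer 0 than the WT median in every case and lay on the other side of 0 for cohesin and condensin genes.

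Calls among cohesin genes lay near the shares over all tested genes, 11.9% higher and 8.04% lower. Among cell cycle genes both shares were larger. Of 36 cell cycle genes 6 were called higher and 6 lower, with a median of 0.03 that turned negative under the other scalings, and 5 and 13 were called after rescaling. The cyclins that drive entry into S phase rose, ccne2 from 4.17 to 42.4 FPKM and ccnd1 from 32.5 to 325 FPKM, and so did mcm3, a subunit of the replicative helicase (2.48). aurka, a mitotic kinase gene, fell from 157 to 105 FPKM. pcna, the sliding clamp of replication, had 278, 284 and 259.7 FPKM at 3.3 hpf and 317, 346 and 285 FPKM at 4.5 hpf (0.20, adjusted p = 0.2696) and went from 264 to 499 FPKM in WT. Of 27 cohesin and condensin genes with ctcf, 3 were called higher and 3 lower, and after rescaling to equal sums 1 and 13. Over all 15917 genes tested after rescaling 1322 were called higher and 3442 lower. ctcf had 137, 124 and 135 FPKM at 3.3 hpf and 198, 289 and 256 FPKM at 4.5 hpf, and hdac8, which recycles the SMC3 subunit, fell from 41.9 to 32.3 FPKM. smc3, a core subunit, changed by 0.12 (adjusted p = 0.285), and stag2a, a regulatory subunit, had 30.9, 30.7 and 33.2 FPKM at 3.3 hpf and 25.96, 26.9 and 28.2 FPKM at 4.5 hpf against 35.9, 33.9 and 33.8 FPKM and 17.8, 14.7 and 11.7 FPKM in WT.

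Genes of RNA processing and protein synthesis rose in part. Of 31 splicing and RNA-binding genes 22 were called higher and 1 lower (median 0.51, WT 1.07), beside 11.9% and 8.04% of all tested genes. After rescaling 11 were higher and 2 lower (median 0.22), under quantile normalization 15 and 1 (median 0.29) and scaled to the spike-ins 6 and 0 (median 0.31). Without column 1 at 4.5 hpf 14 were called higher. srsf5a, a splicing factor gene, went from 78.1 to 365 FPKM. ptbp1a, a splicing repressor gene, had 7.08, 4.16 and 3.74 FPKM at 3.3 hpf and 14.5, 17.3 and 13.6 FPKM at 4.5 hpf and in WT 2.46, 4.68 and 4.07 FPKM and 35.6, 67.8 and 42.4 FPKM. cirbp, a cold-inducible RNA-binding protein gene, had 385, 328 and 352 FPKM at 3.3 hpf and 476, 527 and 533 FPKM at 4.5 hpf, a change of 0.53 ± 0.16 (SE; adjusted p = 0.0321) against 2.03 in WT. The cirbp change was not called under the 3 other scalings (adjusted p = 0.103 to 0.426). Of 52 histone loci 33 were called higher and none lower (median 0.67, WT 1.501), but histone copies may share reads and their separate values are uncertain. The count higher was 17 after rescaling (median 0.38), 17 under quantile normalization (median 0.28) and 11 when scaled to the spike-ins (median 0.46). The linker histone locus histh1l went from 5.04 to 35.9 FPKM. Of 77 genes matched as ribosomal proteins 21 were called higher and 1 lower (median 0.30, WT 0.92), with rps26l from 37.5 to 71.7 FPKM. The 1 called lower was RPS6KA6, a kinase caught by the name pattern. After rescaling 4 of the 77 were called higher, scaled to the spike-ins none, and without column 1 at 4.5 hpf 5.

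Of 59 ribosome biogenesis genes 13 were called higher and 2 lower, beside 11.9% and 8.04% of all tested genes, with a median of 0.03 that was negative after rescaling to equal sums, where 3 were called higher and 14 lower. Without column 1 at 4.5 hpf 5 were called higher and none lower. gnl3, the nucleolar GTPase nucleostemin, went from 5.98 to 20.6 FPKM. Of 21 targets and regulators of p53 4 were called higher and 1 lower, and after rescaling 3 and 4. Over all 15917 genes tested after rescaling 1322 were called higher and 3442 lower. The rescaled counts lower of the ribosome biogenesis and p53 lists lay near that share. sesn3, a stress-response sestrin gene, had 0.787, 0.248 and 0.194 FPKM at 3.3 hpf and 20.2, 18.98 and 14.1 FPKM at 4.5 hpf, and WT had 0.194, 0.148 and 0.314 FPKM and 28.5, 45.3 and 40.5 FPKM. mdm4, a p53 inhibitor, fell from 37.9 to 24.2 FPKM in the knockdown and from 43.6 to 7.68 FPKM in WT. mt2, which encodes a metal-binding metallothionein, had 601, 589 and 504 FPKM at 3.3 hpf and 476, 406 and 316 FPKM at 4.5 hpf and in WT 224, 196 and 238 FPKM and 57.6, 68.5 and 69.2 FPKM. All 6 knockdown libraries were above all 6 WT libraries for mt2, and its step did not pass the test (-0.51, adjusted p = 0.144). Without column 0 at 4.5 hpf the counts higher and lower were 14 and 0 for the enveloping layer, 24 and 1 for first-wave genes, 17 and 0 for Nodal genes, 0 and 9 for egg transcripts and 0 and 4 for germ plasm.

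Few markers of cells that a blastula should lack could be tested. None was called in the knockdown, beside 20% of all tested genes, and with so few genes this says little. Of 11 loci matched as markers of ovarian somatic cells, which could come with the eggs, 2 passed the filter on low values. In WT 1 of these 2 was called higher. The ovarian list summed to 58.4 to 74.5 FPKM at 3.3 hpf and 59.3 to 75.8 FPKM at 4.5 hpf in the knockdown, so its RNAs were not absent. Of 27 loci matched as markers of later tissues 4 passed the filter, and the list summed to 7.88 to 10.3 FPKM and 5.69 to 8.48 FPKM. Neither sum separated the stages. Mitochondrially encoded transcripts were not analysed here.

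The direct test of the difference between the steps in Rad21 MO and in WT called 1922 genes (12.4%), 995 with a higher step in the knockdown (6.4%) and 927 with a lower one (5.97%). Most were smaller movements in the direction WT took. The genes were picked on a difference that contains the WT step, so the signs given here are a description. Of the 927 genes 926 had a positive change in WT. Among these the knockdown change was positive but smaller for 807 and 0 or below for 119. All 995 with a higher step had a negative change in WT. Among these the knockdown change was negative but smaller for 946 and 0 or above for 49. In the zygotic class 383 had a lower step and none a higher one (median difference -0.74), and in the maternal class 444 had a higher step and 1 a lower one (median 0.99). Without column 0 at 4.5 hpf 917 genes were called, 563 higher and 354 lower, and the class medians were -0.67 and 0.90. Leaving out column 1 of WT at 4.5 hpf gave 954, column 0 of WT at 3.3 hpf 979 and column 0 of Rad21 MO at 3.3 hpf 962. After rescaling to equal sums 1085 were higher and 113 lower, and under quantile normalization 861 and 297. Scaled to the spike-ins no gene was called by limma, while the class medians were -0.60 and 0.87, over classes that this scaling redraws to 1004 and 2753 genes.

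Several genes with wide gaps show both patterns. krt18, a keratin gene, had 31.6, 11.6 and 14.1 FPKM at 3.3 hpf and 327, 469 and 321 FPKM at 4.5 hpf and in WT 1.82, 6.54 and 7.02 FPKM and 491, 789 and 567 FPKM. Its mean was higher than WT at the start and lower at the end, but neither difference was called (limma, adjusted p = 0.125 and 0.203). The krt18 step differed by -2.44 ± 0.57 (SE; adjusted p = 0.0149). akap12b, a scaffold gene for protein kinases, differed by -2.07 and bmp7a by -1.91. On the other side HSBP1, a gene for a heat shock factor binding protein, had 11.05, 13.8 and 14.1 FPKM at 3.3 hpf and 15.1, 14.4 and 16.6 FPKM at 4.5 hpf in the knockdown and 11.5, 12.3 and 14.9 FPKM and 4.29, 1.83 and 0 FPKM in WT, where 1 library was listed at 0. pik3r3b, a regulatory subunit of PI3 kinase, had 44.2, 70.3 and 44.3 FPKM at 3.3 hpf and 30.7, 42.2 and 39.97 FPKM at 4.5 hpf and in WT 64.7, 68.3 and 49.8 FPKM and 13.4, 7.52 and 7.79 FPKM. cdca9, a cell division gene, fell from 122 to 60.95 FPKM in the knockdown and from 89.96 to 9.84 FPKM in WT (difference 2.09, adjusted p = 0.00269).

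Each library was also placed on a scale of WT development, with the mean profile at 2.5 hpf as 0 and that at 5.3 hpf as 1, over the 2507 genes of both classes. Rad21 MO libraries stood at 0.269, 0.202 and 0.230 at 3.3 hpf and at 0.554, 0.663 and 0.608 at 4.5 hpf. The means were 0.234 ± 0.034 and 0.608 ± 0.055 (SD, n = 3 each), a step of 0.374 ± 0.037 (SE). WT stood at 0.157, 0.193 and 0.186 and then at 0.742, 0.846 and 0.780, a step of 0.611 ± 0.033 (SE). So the knockdown libraries all stood higher than WT on this scale at 3.3 hpf and all lower at 4.5 hpf. Each of these comparisons gave p = 0.1 in an exact two-sided permutation test, the smallest p that 3 against 3 libraries allow. The scale pools both classes, and at 3.3 hpf both class medians were above WT, 0.17 for the zygotic and 0.08 for the maternal class. It does not measure age as such, since WT at 10 hpf stood at 0.812. Without column 0 at 4.5 hpf the Rad21 MO step was 0.400. Within the first kind of spike-in profile the knockdown went from 0.269 and 0.202 to 0.663 and WT from 0.157 to 0.742. Within the second kind the knockdown went from 0.230 to 0.608, and WT from 0.193 and 0.186 to 0.846 and 0.780. The Rad21 MO libraries also stood above WT at 2.5 hpf, at 0.018 to 0.037 against -0.010 to 0.008, a gap that was not tested. CTCF MO libraries stood at -0.002 to 0.021. The WT libraries of this stage set the 0 and helped to pick the genes, which favours higher positions in the other groups. By 5.3 hpf the Rad21 MO libraries had reached 0.858 ± 0.006 (SD, n = 3).

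**Figure D5:**
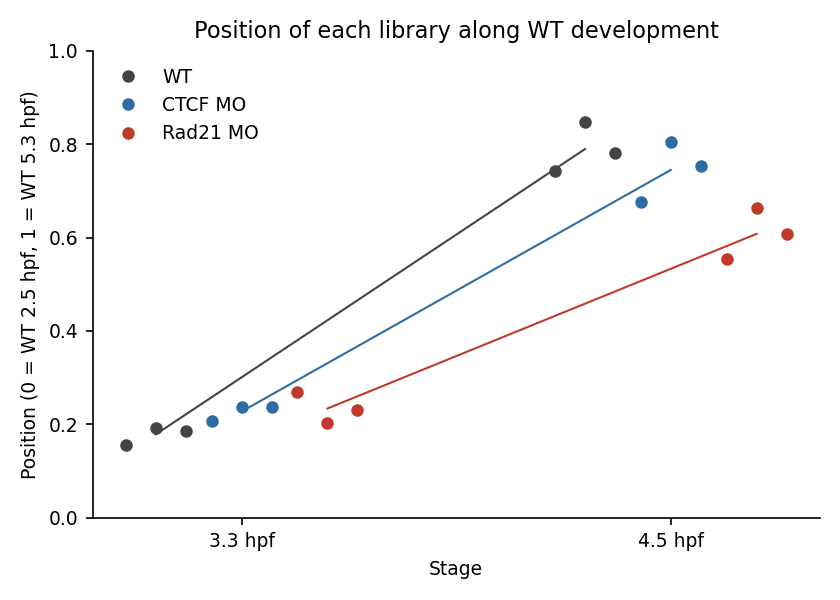
Position of each library on the line from WT at 2.5 hpf (0) to WT at 5.3 hpf (1), by stage, for WT (grey), CTCF MO (blue) and Rad21 MO (red), with lines through the means of 3 libraries. The 3 Rad21 MO libraries lie between 0.202 and 0.269 at 3.3 hpf and between 0.554 and 0.663 at 4.5 hpf, where all WT and CTCF MO libraries are higher.

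The step of the CTCF MO embryos lay between the others. They moved from 0.228 ± 0.017 to 0.745 ± 0.064 (SD, n = 3 each), a step of 0.517 ± 0.038 (SE). At 3.3 hpf the knockdowns did not separate (difference 0.006, exact permutation p = 1), and at 4.5 hpf all Rad21 MO libraries were lower (difference -0.14, exact permutation p = 0.1). CTCF MO gave 7070 calls (45.5%), with class medians of 1.72 and -1.14. The test of the difference between the steps of both knockdowns called 9 genes (0.0579%), 5 higher (0.0322%) and 4 lower (0.0257%) in Rad21 MO, while 2441 had an unadjusted p under 0.05. This count ranged from 1 to 297 when single libraries were left out, and the 297 came without column 0 of CTCF MO at 4.5 hpf. Without column 0 of Rad21 MO at 4.5 hpf it was 2. The step of vox was lower in Rad21 MO than in CTCF MO (difference -1.45 ± 0.20 SE, adjusted p = 0.0163). Higher steps were found for tdrd6 (1.17 ± 0.18 SE, adjusted p = 0.0212), usp45, which encodes a ubiquitin protease (1.14 ± 0.14 SE, adjusted p = 0.0102), sgk3, a kinase gene (1.30 ± 0.22 SE, adjusted p = 0.0361), and spryd3 (1.47 ± 0.19 SE, adjusted p = 0.0102). The Rad21 MO libraries here are those compared with WT.

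The rises were unevenly placed in the genome. On chromosome 4, 324 of 970 tested genes (33.4%) were called higher in the knockdown and 54.4% in WT. Other chromosomes had 6.53% to 18.4% called higher in the knockdown, with the highest share on chromosome 25. Chromosome 4 also held 361 of the 1759 zygotic-class genes. Short loci rose more often than long ones, in the knockdown as in WT. Genes were put in 5 equal bins by span on Zv9. In the knockdown 19.8% were called higher in the shortest bin (up to 5784 bases) and 7.20% in the longest (from 48992 bases). The WT shares were 37.2% and 19.8%. Within the zygotic class the median change in the knockdown did not follow span, with values of 1.17, 1.29, 1.16, 1.30 and 1.21 from the shortest to the longest bin.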

How the data were processed

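Stranded total RNA with ribosomal RNA removed was sequenced from pools of 100 embryos, per the labels' protocols. The authors deposited FPKM values per gene locus and library. TopHat2 2.0.9, Cufflinks 2.2.0, Cuffdiff (version not given in the sources used here) and the zebrafish build Zv9 (danRer7) are named in the submitters' processing notes. Coordinates are those of the authors' file, whose counting from 0 or 1 is not stated. An exact 0 there can be a failed estimate. The authors' own comparison tables were not used. The depth is unknown: relative depths were read from low genes, of which only 22.4% to 26.7% shared a ratio, too few to recover reads, so no count test was run.

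Loci that merge several genes (498 of 31966) were kept in the tests but not named. Genes with at least 1 FPKM in at least 3 of the 18 WT, CTCF MO and Rad21 MO libraries at 3.3 and 4.5 hpf were kept. A model with 1 mean per group was fitted to log2(FPKM + 1) by limma 3.58.1 (R 4.3.3, with package data.table at version 1.17.8), with 12 residual degrees of freedom and moderated variances. P-values were adjusted over all tested genes by the Benjamini-Hochberg method, and an adjusted p under 0.05 was a call. A step is the 4.5 hpf mean minus the 3.3 hpf mean, and differences between steps were tested as interaction contrasts. The script was tested on simulated data. The plots came from matplotlib 3.10.9 under Python 3.11.15, after pandas 2.3.3 had read the results.

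Named genes were the 15 largest rises and 15 largest falls among called genes whose stages did not overlap and whose higher group mean was at least 5 FPKM, up to 8 each way by difference from WT and from CTCF MO, and up to 4 members of each list. Some of these are given by count only. The genes ndr1, gsc, ntla, bmp2b, bmp15, cnot7, dazl, pcna, aurka, smc3, stag2a and RPS6KA6 were named after their values were seen. The libraries compared, the gene lists and the tests were chosen with earlier results of these data known. Classes were redrawn under each scaling, pseudocount and filter. Alternatives were other scalings, pseudocounts, filters and sets of libraries, and leaving out each library.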

Additional observations from a re-analysis of the deposited data

Results flagged for a closer look

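The steps of Rad21 MO and WT embryos differed by the interaction test (limma, adjusted p under 0.05) for 1922 genes, and those of Rad21 MO and CTCF MO for 9. A lower step can hold a level above WT at 3.3 hpf as well as one below it at 4.5 hpf. Rad21 MO differed from WT by 0.96 and then -0.08 for aplnra (limma, adjusted p = 0.132 and 0.830). For chd it differed by 1.31 and -0.53 (adjusted p = 0.0199 and 0.0369). For akap12b it differed by 1.44 and -0.63 (adjusted p = 0.0305 and 0.0600). Values below are the Rad21 MO step minus the WT step in log2(FPKM + 1).

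Among the steps lower than in WT, the difference was -2.44 for krt18, -1.77 for krt4, -1.49 for anxa1a, -1.90 for mxtx1, -2.16 for apoeb and -2.07 for stm. It was -1.94 for tbx16, -1.91 for bmp7a, -1.84 for chd, -1.76 for sox19a, -1.45 for cebpb, -1.39 for blf, -1.39 for vox, -1.31 for zic2b, -1.16 for sox3, -1.15 for bmp2b and -1.04 for aplnra. The remaining values were -2.07 for akap12b, -1.90 for ptbp1a, -1.73 for ccne2, -1.63 for ccnd1, -1.50 for cirbp, -1.19 for srsf5a, -0.78 for rps26l, -0.70 for pcna, -0.65 for ctcf, -0.61 for ybx1, -0.58 for rad21a and -0.35 for smc3.

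Steps were higher than in WT for 20 named genes. The difference was 2.14 for btg4, 1.89 for tdrd6, 1.55 for buc, 1.43 for bmp15, 1.43 for cnot7, 1.29 for ca15b, 1.17 for dazl, 1.10 for cldnd, 0.97 for mos and 0.69 for sox19b. For the others it was 2.72 for HSBP1, 2.12 for pik3r3b, 2.09 for cdca9, 1.78 for sgk3, 1.73 for mdm4, 1.49 for usp45, 1.22 for mt2, 1.17 for spryd3, 1.17 for RPS6KA6 and 0.97 for stag2a.

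The spike-in RNAs, which enter only the spike-in scaling, placed column 0 of Rad21 MO at 4.5 hpf 20.8% of the way between the 2 kinds of profile. Its part in these results was not tested beyond leaving the library out.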

How the results depend on the processing

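Rescaling each library to an FPKM sum of 1e+06 gave 4764 calls for the Rad21 MO step, 1198 for the difference from WT and 2 for that from CTCF MO. Quantile normalization gave 1158 and 5 for the differences. Scaling to the spike-ins, chosen after seeing the data like leaving out small-RNA loci, gave 1157 calls for the step, 0 and 0 for the differences, and a zygotic-class median of 1.55. That median was 1.52 with a pseudocount of 0.1. The count of differences from CTCF MO was 20 without a filter, 15 at a minimum of 5 FPKM, 0 with only the contrast's groups and 244 with all 45 libraries. Leaving out single libraries gave 1724 to 3525 calls for the step, 917 to 2140 for the difference from WT and 1 to 297 for that from CTCF MO. List medians changed sign in some settings. Rescaled values were -0.24 for clearance, -0.24 for cell cycle and -0.24 for ribosome biogenesis, and spike-in values -0.15, -0.16 and -0.17. The cell cycle median was -0.12 under quantile normalization, -0.0046 without a filter, -0.0046 at 5 FPKM and -0.083 to 0.055 without single libraries. The ovarian median was 0 without a filter and -0.051 with all 45 libraries. The sox11b difference from WT was 0.47 under quantile normalization. The cause of these shifts was not tested. The maternal-class medians, the zygotic-class difference and the position step kept their direction in every setting run, but scaling redraws the classes (maternal 748 genes, 2269 rescaled, 2753 by spike-ins; zygotic 1759, 1200 and 1004). The number of WT calls stayed within 1.5 times, 6651 to 9155, while its balance turned from more rises to more falls under all 3 other scalings. No paired analysis was possible because the columns carry numbers that are not tied to the replicate letters in the titles. An unknown depth and 3 pools per group limit precision.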

Other observations

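Calls were unevenly spread over expression levels. The level of a gene was the mean FPKM of the Rad21 MO libraries of both stages. Among 863 genes over 100 FPKM 30% were called higher and 7.65% lower in Rad21 MO at 4.5 hpf. Between 20 and 100 FPKM the shares were 9.02% and 14.5%, and between 5 and 20 FPKM 10.8% and 9.6%. Between 1 and 5 FPKM they were 13.4% and 1.73%, and under 1 FPKM 10.1% and 0.195%. These levels include the later libraries, so a rise itself can move a gene to a higher band. Genes under 1 FPKM also have little room to fall on the scale used, and the filter kept them only if some libraries reached 1 FPKM. The split between rises and falls in the lowest bands is thus partly set by the floor and the filter. It cannot be compared with the split in higher bands. The shares are therefore a description, and a dependence on level was not tested. Outside both classes 592 of 13029 genes were called higher (4.54%) and 845 lower (6.49%), below the 11.9% and 8.04% over all tested genes. In WT the same genes gave 2846 higher (21.8%) and 3190 lower (24.5%).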
